A study of Homo sapiens with 2 samples.

Results

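Desmosomes are the spot-like junctions by which neighbouring epithelial cells hold fast to one another and to which their keratin filaments are tied. The 10 genes described here encode the desmosomal cadherins DSG2, DSG3, DSC2 and DSC3, the armadillo proteins JUP, PKP1, PKP2 and PKP3, the plakin DSP, and the membrane protein PERP. They were chosen by name, and every probe set that the platform annotation gives to one of them alone was taken, which made 24 of the 54675 probe sets and 10 of the 19775 genes that the array names. The cells belong to KYSE-140, a human cell line established from a squamous carcinoma of the esophagus, and were divided by flow cytometry by whether they carried the surface glycoprotein CD90 (encoded by THY1). The 2 samples, CD90+ and CD90-, came from the same line, with no treatment in the labels, and total RNA of each was read on 1 Affymetrix U133 Plus 2.0 array. With 1 array per population there is no replicate error and no test, every difference describes these 2 RNA samples, and the number of arrays limits the precision.

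In a desmosome, the extracellular domains of desmogleins (DSG) and desmocollins (DSC) bind those of the next cell. Inside the cell their tails bind plakoglobin (JUP) and plakophilins (PKP), which in turn bind desmoplakin (DSP), and desmoplakin holds the keratin filaments. In the stratified epithelium of the skin the isoforms are layered: DSG3 and DSC3 are typical of the lower layers, DSG1 and DSC1 of the uppermost. PKP1 is typical there of the layers above the basal cells. DSG2, DSC2 and PKP2 are also the isoforms of simple epithelia and heart muscle.

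Most desmosome genes differed little between the 2 populations, and so did most measured genes. All 10 genes were measured, that is, the probe set that stood for each reached the floor of 71.6, the median signal of the arrays, in at least 1 population. PKP2 was 2.30-fold higher in CD90+ cells, and the other 9 genes differed by less than 1.5-fold. Among those 9, DSG3 was 1.42-fold higher, and PKP1, PERP and DSC3 were 1.35-fold, 1.30-fold and 1.29-fold lower. Thus 1 of 10 genes was at least 2-fold higher, against 2.47% of the 12466 measured genes, and 0 of 10 were at least 2-fold lower, against 1.75%. At 1.5-fold the counts were again 1 higher and 0 lower, against 7.37% and 6.76% of measured genes. The median log2 ratio, CD90+ over CD90-, was 0.07 for the 10 genes and 0.01 for all measured genes. Ratios lay above 0 in 6 of the 10, against 51.2% of measured genes, so the genes shared no direction. In such pooled RNA, fewer cells that express a gene and less of its RNA per cell cannot be told apart.

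**Figure D1:**
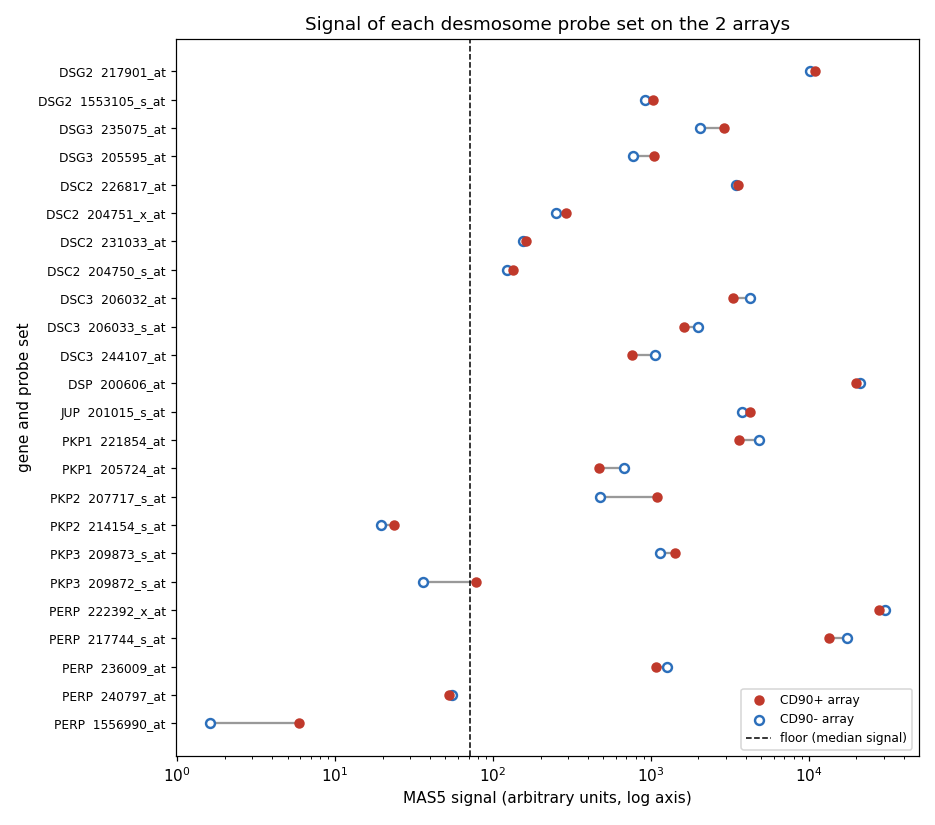
MAS5 signal (arbitrary units, log axis) of each of the 24 desmosome probe sets in CD90+ cells (filled) and CD90- cells (open), 1 array each, joined by a line; the dashed line is the floor of 71.6. The widest gap among probe sets above the floor on both arrays is that of PKP2 (1095 against 476), and 3 probe sets lie under the floor in both populations.

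The sort and the cells were checked first. THY1 was higher in CD90+ cells on all 3 of its probe sets, at 293 against 78.9 (3.72-fold) on the one that stood for the gene. Of the squamous markers, KRT5 read 19357 in CD90+ and 19208 in CD90- cells, KRT14 5323 and 3700, SOX2 23329 and 27407, and CDH3 3860 and 2291. TP63 and KRT6A, the other 2 of the 6 squamous markers, were not analysed. The 4 measured markers summed to 51868 and 52605, a sum made up mostly of KRT5 and SOX2. Of these 4 markers 3 had a ratio above 0, and their median log2 ratio was 0.27. All 5 fibroblast markers (COL1A2, COL3A1, DCN, LUM and PDGFRB) and all 4 leukocyte markers (PTPRC, CD3E, CD14 and LYZ) were under the floor in both populations, the highest probe set reading 64.0 and 57.3. Of 3 endothelial markers PECAM1 alone reached the floor (98.5 in CD90+ and 70.9 in CD90- cells), and of the muscle markers DES alone (60.7 and 75.8).

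Since no sort was repeated, the only repeated measurement is that of a gene by more than 1 probe set. Over the 6188 genes with several measured probe sets, log2 ratios had a pooled SD of 0.31 within genes. It was 0.28 where a gene's brightest signal was at least 16 times the floor, and 0.34 from 4 to 16 times the floor. This spread covers probe set noise and not the spread between sorts. In 6 desmosome genes 2 or more probe sets lay above the floor on both arrays, 16 probe sets in all, and their pooled SD was 0.09, compared with 0.28 over the 5490 genes of that kind and 0.26 over the bright ones among them. All 6 had probe sets of one sign, 3 higher (DSG2, DSG3 and DSC2) and 3 lower (DSC3, PKP1 and PERP). Over all genes this held in 55.4%, or 65.8% with exactly 2 such probe sets and 42.1% with 3 or more. Probe sets of a gene were hybridised with the same RNA, so this agreement describes the 2 samples.

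**Figure D2:**
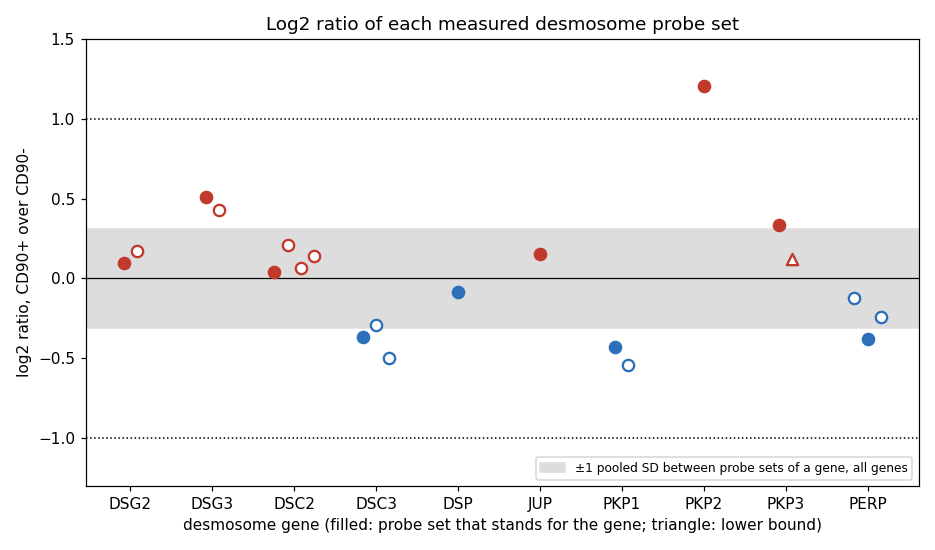
Log2 ratio, CD90+ over CD90-, of each measured probe set of the 10 desmosome genes; filled points stand for the gene, the triangle is a lower bound, the grey band is ±0.31, 1 pooled SD between probe sets of a gene over all genes, and dotted lines mark 2-fold. PKP2 at 1.20 is the 1 point beyond 2-fold, and where a gene has several points they lie on one side of 0.

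The desmogleins come first among the cadherins. DSG2, the desmoglein found wherever desmosomes are made, read 10865 in CD90+ and 10183 in CD90- cells on the probe set that stood for it, and 1032 and 917 on its second. Both probe sets were slightly higher in CD90+ cells, with log2 ratios of 0.09 and 0.17, inside 1 SD between probe sets. Of genes in the same signal class, 71.7% differed by at least as much as DSG2. DSG3, the basal-layer desmoglein and the target of antibodies in pemphigus vulgaris, read 2898 in CD90+ and 2036 in CD90- cells, and 1043 and 774 on its second probe set. The log2 ratios were 0.51 and 0.43, outside 1 SD on both, and 11.6% of the 5012 genes in the same signal class differed by at least as much. The ratio of DSG3 exceeded that of DSG2 by 0.42 on the log2 scale.

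The desmocollins differed from each other as well. DSC2, the widely expressed desmocollin, read 3535 in CD90+ and 3444 in CD90- cells. Its other 3 probe sets read 288 and 250, 163 and 156, and 135 and 122, so that the log2 ratios of all 4 ran from 0.04 to 0.21. DSC3, the desmocollin of the basal layer, read 3310 and 4267, then 1624 and 1991, and 757 and 1067. All 3 were lower in CD90+ cells, with log2 ratios from -0.50 to -0.29. Of genes in the same signal class, 88.4% differed by at least as much as DSC2 and 20.85% by at least as much as DSC3. The ratio of DSC3 was 0.40 below that of DSC2 on the log2 scale. The basal-layer cadherins DSG3 and DSC3 therefore went opposite ways, by 0.88 between their log2 ratios, whereas those of DSG2 and DSC2 differed by 0.06.

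The 4 cadherin genes lie in one cluster on chromosome 18, in the RefSeq order DSC3, DSC2, DSC1, DSG1, DSG4, DSG3, DSG2. The promoters of these neighbours are shown because their ratios part although the genes lie side by side. Each is 300 bases (250 before to 50 after the annotated start), from RefSeq GRCh38.p14, read 5′ to 3′ along the gene, with the E-box letters CACCTG or, on the other strand, CAGGTG in capitals. These letters are the core bound by zinc finger repressors such as SNAI2. The 4 windows are chr18:31497927-31498226 (+ strand) for DSG2, chr18:31447491-31447790 (+) for DSG3, chr18:31102372-31102671 (-) for DSC2, the first of its 2 windows, and chr18:31042693-31042992 (-) for DSC3.
DSG2: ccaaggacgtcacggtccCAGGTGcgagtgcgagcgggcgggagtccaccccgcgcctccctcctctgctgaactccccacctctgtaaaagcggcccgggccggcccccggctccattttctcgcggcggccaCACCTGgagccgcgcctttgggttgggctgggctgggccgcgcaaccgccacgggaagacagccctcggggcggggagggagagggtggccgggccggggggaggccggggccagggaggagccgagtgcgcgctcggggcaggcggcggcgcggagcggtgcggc
DSG3: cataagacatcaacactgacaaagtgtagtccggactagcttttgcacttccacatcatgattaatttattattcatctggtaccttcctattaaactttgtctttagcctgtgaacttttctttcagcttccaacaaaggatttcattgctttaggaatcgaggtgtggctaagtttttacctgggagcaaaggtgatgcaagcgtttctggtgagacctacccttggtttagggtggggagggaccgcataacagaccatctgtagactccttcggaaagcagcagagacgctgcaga
DSC2: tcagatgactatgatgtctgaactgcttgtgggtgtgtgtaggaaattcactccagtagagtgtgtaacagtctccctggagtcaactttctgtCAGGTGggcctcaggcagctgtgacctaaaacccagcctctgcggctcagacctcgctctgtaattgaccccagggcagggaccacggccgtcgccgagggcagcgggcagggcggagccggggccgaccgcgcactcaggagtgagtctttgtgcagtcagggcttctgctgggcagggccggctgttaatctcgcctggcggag
DSC3: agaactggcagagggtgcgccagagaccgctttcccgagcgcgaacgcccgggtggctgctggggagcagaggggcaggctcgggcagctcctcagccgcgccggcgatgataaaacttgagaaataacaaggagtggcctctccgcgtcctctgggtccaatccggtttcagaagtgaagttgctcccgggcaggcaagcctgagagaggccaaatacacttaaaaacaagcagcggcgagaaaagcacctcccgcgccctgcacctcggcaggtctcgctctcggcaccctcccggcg
The DSG2 window held 2 matches and the DSC2 window 1. The DSG3 and DSC3 windows held none. GC content was 76.7% for DSG2, 44.0% for DSG3, 60.7% for DSC2 and 63.3% for DSC3, with a median of 58.7% over all windows.

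RefSeq windows were found for 8 of the 10 genes, 10 windows in all, and not for PKP2 or PKP3. The motif was present in 4 of the 10, those of DSG2, DSC2, DSP and the second of JUP, against 20.6% of 35116 windows. The genes with a match in any window, DSG2, DSC2, DSP and JUP, differed by at most 1.11-fold between the populations. DSC2 and JUP each also had a window without a match. The genes without a match differed by 1.29-fold to 1.42-fold, DSG3 being higher and DSC3, PKP1 and PERP lower in CD90+ cells. This pattern was noticed after the values were seen, and it leaves out PKP2, the gene that differed most. The GC box CCGCCC (or GGGCGG), the letters bound by SP1, was present in 7 of the 10 windows, those of 6 genes, against 45.0% of all windows; the DSG3 and DSC3 windows held none. The letters AACCNGTT (or AACNGGTT), after the Grainyhead site, were in 0 of the 10, against 1.73%. A match describes the letters of a window and no match says nothing of a factor.

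Outside the cluster nearby genes were mostly lower in CD90+ cells. Of the 5 measured genes before DSC3 and the 5 after DSG2, 8 had ratios below 0. Over all measured genes 51.2% lay above 0. The 10 ratios ran from -0.80 for TAF4B to 0.04 for SS18, with a median of -0.17. AQP4 (54.7 in CD90+ and 109 in CD90- cells) and DSG2-AS1 (57.4 and 77.0) were among the 8. Both reached the floor only in CD90- cells, so their ratios could only lie below 0. The 50 nearest genes above the floor on both arrays had a median log2 ratio of -0.28 around DSG2, DSG3 and DSC2, and -0.26 around DSC3. Measured against these medians, DSG3 stood 0.79 above its neighbours, DSG2 0.37 and DSC2 0.32, and the difference for DSC3 was -0.11. N-cadherin (CDH2), the measured gene next to DSC3, read 2340 in CD90+ and 2404 in CD90- cells. The part of chromosomal position in these ratios was not tested.

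**Figure D3:**
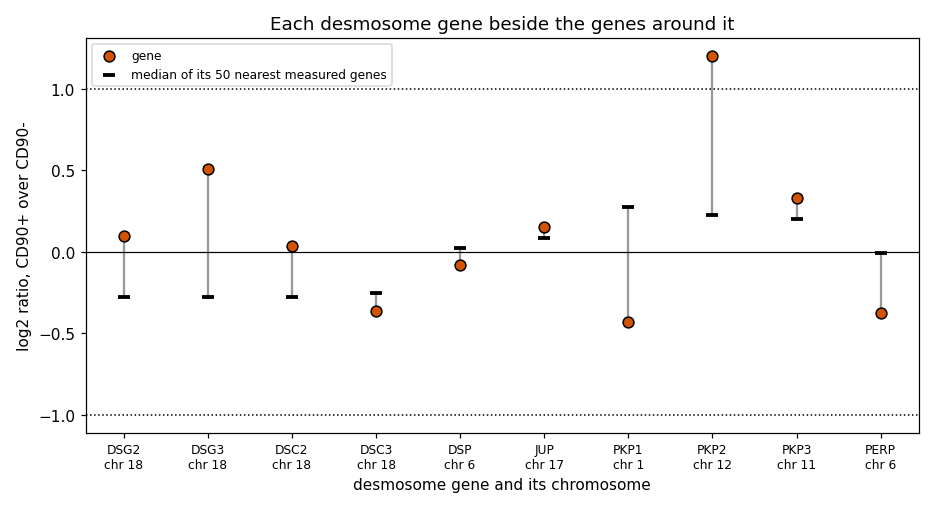
Log2 ratio, CD90+ over CD90-, of each desmosome gene (point) and the median log2 ratio of its 50 nearest genes above the floor on both arrays (dash), 1 array per population. DSG2, DSG3 and DSC2 lie above a neighbourhood of -0.28, PKP1 lies below one of 0.27, and PKP2 at 1.20 stands 0.98 above one of 0.23.

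Desmoplakin and plakoglobin, the partners that every desmosome needs, hardly differed. DSP, which links the plaque to keratin, had a signal of 19865 in the CD90+ and 21066 in the CD90- sample on its single probe set, so its log2 ratio was -0.08. The DSP promoter, shown for its pair of E-box letters (in capitals), lies at chr6:7541421-7541720 (+ strand).
DSP: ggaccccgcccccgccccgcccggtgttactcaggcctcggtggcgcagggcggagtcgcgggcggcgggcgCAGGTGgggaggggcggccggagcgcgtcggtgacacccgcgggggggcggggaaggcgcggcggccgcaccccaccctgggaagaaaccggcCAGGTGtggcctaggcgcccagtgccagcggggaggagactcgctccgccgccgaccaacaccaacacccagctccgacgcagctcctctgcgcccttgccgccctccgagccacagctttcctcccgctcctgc
JUP, or plakoglobin, a relative of beta-catenin that binds the cadherin tails, read 4209 and 3790 on its single probe set, a log2 ratio of 0.15. Of genes in the same signal class, 74.2% differed by at least as much as DSP and 56.1% by at least as much as JUP. The antisense transcript DSP-AS1, whose start lies beside that of DSP on the opposite strand, was singled out after its values were seen and read 360 in CD90+ and 212 in CD90- cells, 1.70-fold higher on 1 probe set.

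The plakophilins spread the most. PKP2, the plakophilin of simple epithelia, basal cells and heart, which also recruits desmoplakin to the membrane, read 1095 in CD90+ and 476 in CD90- cells. The log2 ratio was 1.20, above that of 98.4% of measured genes, and 4.16% of the 3962 genes in its signal class differed by at least as much. This rests on 1 probe set of the class shared between transcripts, since the second probe set of PKP2 read 23.5 and 19.6, under the floor in both populations. When the neighbours' median of 0.23 was subtracted, PKP2 was 1.97-fold higher, and 0 desmosome genes reached 2-fold. Without the shared classes PKP2 had no measured probe set.

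PKP1, the plakophilin of the suprabasal layers, whose loss causes skin fragility, went the other way. It read 3594 in CD90+ and 4838 in CD90- cells, and 466 and 680 on its second probe set, with log2 ratios of -0.43 and -0.54. Its neighbours on chromosome 1 had a median of 0.27, so its log2 ratio relative to them was -0.70. PKP3, found in nearly all epithelial desmosomes, read 1429 and 1136, a log2 ratio of 0.33. Its second probe set read 77.8 in CD90+ and 36.1 in CD90- cells, at least 1.09-fold higher after the floor. Of genes in the same signal class, 16.1% differed by at least as much as PKP1 and 24.4% by at least as much as PKP3. The ratios of PKP2 and PKP1 differed by 1.63 on the log2 scale, a 3.10-fold change in the balance of the 2 signals between the populations. Above the floor on both arrays PKP2 and PKP3 had 1 probe set each and PKP1 had 2, so this comparison rests on few probe sets.

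PERP, a tetraspan membrane protein of desmosomes and a target of p53 and p63, was lower in CD90+ cells. The probe set that stood for it read 13402 in CD90+ and 17410 in CD90- cells. The signals were 27755 and 30232 on a probe set of the class prone to cross-hybridisation, and 1071 and 1264 on another. The 3 log2 ratios ran from -0.38 to -0.12, and 2 further probe sets were under the floor in both populations. The value that stood for the gene was outside 1 SD between probe sets, and the other 2 were inside it. Of genes in the same signal class, 19.9% differed by at least as much as PERP.

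**Figure D4:**
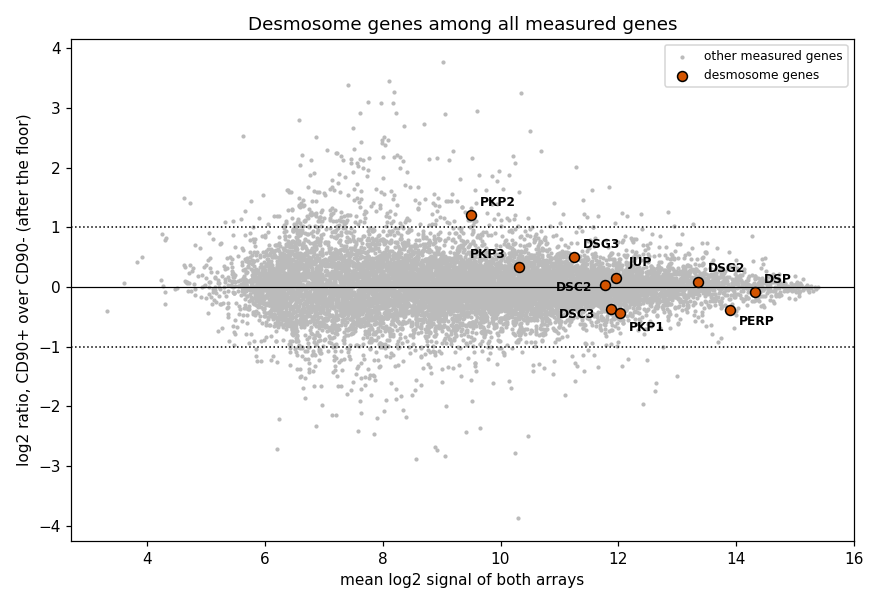
Log2 ratio, CD90+ over CD90-, against mean log2 signal of both arrays for the 12466 measured genes, 1 probe set per gene; desmosome genes are named and dotted lines mark 2-fold. Only PKP2 among the 10 lies beyond the lines; the other 9 lie between -0.43 and 0.51.

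The desmosomal genes typical of the outermost layers of skin were not measured in these cells. DSG1, DSG4, DSC1 and the corneodesmosome protein CDSN stayed under the floor in both populations, the highest reading 25.1 for DSC1. Of this list of 7 genes 3 were measured. Envoplakin (EVPL), a plakin of the cornified envelope, was at least 2.69-fold lower in CD90+ cells (60.0 against 193). Its partner periplakin (PPL) read 1431 in CD90+ and 1415 in CD90- cells. PKP4, an armadillo relative of the plakophilins, read 3416 and 3897, with all 5 of its measured probe sets lower in CD90+ cells; with its neighbours' median of -0.40 subtracted the log2 ratio turned to 0.21. The list median was -0.19.

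Keratins, to which desmoplakin is tied, had 1 measured member beyond 2-fold. Of the 13 keratins listed 9 were measured. KRT4 was under the floor in both populations, and KRT6A, KRT6B and KRT17 were not analysed. Of the 9 measured keratins 8 differed by less than 2-fold, and the median log2 ratio of the 9 was 0.01. At 2-fold, 1 was lower and 0 were higher, against 1.75% and 2.47% of all measured genes. The 1 lower was KRT16, a keratin of activated and suprabasal keratinocytes, at 128 in CD90+ and 368 in CD90- cells, 2.88-fold. KRT5, a keratin of basal cells, had nearly equal signals, given above.

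Among regulators of desmosomal and squamous genes, 10 were measured, of which 3 were lower and 1 was higher by at least 2-fold (against 1.75% and 2.47% of all measured genes), with a median of -0.17. With the neighbours' median subtracted, GRHL1 was at -0.79 and GRHL3 just under 2-fold, which left ZNF750 as the 1 gene lower by that much. The Grainyhead factor GRHL1, which activates DSG1 in skin, read 489 in CD90+ and 1180 in CD90- cells, 2.42-fold lower, among neighbours with a median of -0.49. GRHL3 read 321 and 670, 2.09-fold lower. ZNF750, a factor of terminal differentiation, read 90.2 and 236, 2.62-fold lower on its 1 probe set. Its CD90+ signal lay near the floor of 71.6. TWIST1, a factor of epithelial-mesenchymal transition, read 634 and 307, 2.06-fold higher, and the E-box repressor SNAI2, singled out after its values were seen, 3032 and 1822, 1.66-fold higher. SNAI1, ZEB1 and ZEB2 stayed under the floor on every probe set in both populations.

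The list of proteases that cleave desmosomal cadherins or corneodesmosomes, and of their inhibitors, had 4 measured members out of 7. Their log2 ratios centred on -0.03. Beyond 2-fold, 1 of the 4 was higher and 0 were lower, against 2.47% and 1.75% of all measured genes. KLK5, a kallikrein that degrades corneodesmosomes, read 275 in CD90+ and 82.4 in CD90- cells, 3.33-fold higher. Its CD90- signal lay near the floor of 71.6. CTSV, a cathepsin of stratified epithelia, read 17495 and 15106. The kallikreins KLK7 and KLK14 stayed under the floor in both populations.

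**Figure D5:**
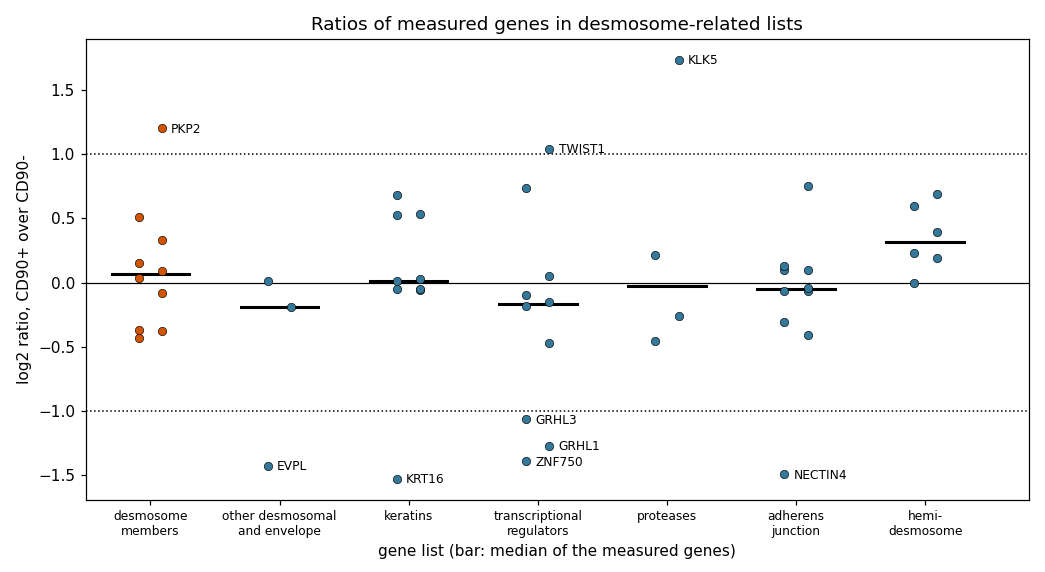
Log2 ratio, CD90+ over CD90-, of every measured gene in the desmosome list and 6 related lists, 1 array per population; bars are list medians and genes beyond 2-fold (dotted lines) are named. Desmosome genes centre on 0.07, adherens junction genes on -0.05 and hemidesmosome genes on 0.31.

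The other anchoring junctions are given beside the desmosome for comparison of counts and medians. In the adherens junction, which ties actin to classical cadherins, the 10 measured members centred on a log2 ratio of -0.05. Beyond 2-fold, 1 gene was lower and 0 were higher, against 1.75% and 2.47% of all measured genes. That gene was NECTIN4, a nectin adhesion molecule, at 89.3 in CD90+ and 251 in CD90- cells, 2.82-fold. E-cadherin (CDH1) read 13150 and 11992. In the hemidesmosome, which ties keratin to the basement membrane, 0 of 6 measured genes were beyond 2-fold in either direction, against the same shares. Ratios were above 0 in 6 of 6, against 51.2% of all measured genes, and the median was 0.31. The count rests on the probe set that stood for each gene: ITGB4 was at 0.00030 with 2 of its 4 measured probe sets above 0, and DST at 0.23 with 2 of 7. Integrin alpha 6 (ITGA6) read 8656 in CD90+ and 6588 in CD90- cells, and the laminin chain LAMB3 7308 and 6400.5. The desmosome list lay between these 2 junctions by its median, with 6 of 10 ratios above 0, and no difference between the lists was tested.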

How the data were processed

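Total RNA of CD90+ and CD90- KYSE-140 cells was measured on 1 array each, and the label for the sorted population gave the groups. MAS5 was run by the authors, per the submitters' processing notes; the version was not given in the sources used here, nor were settings. Values were deposited as linear signal intensities, scaled by the authors to a 2 to 98% trimmed mean of about 500 (499.9 on both). MAS5 makes ratios of dim probe sets noisy. Detection calls were not used here.

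Probe sets were named by the platform annotation, with symbols updated to RefSeq GRCh38.p14 (41043 of 41097 matched). The 1801 probe sets with several symbols were not named, and list genes without a single-symbol probe set were not analysed here. Signals under the floor of 71.6, the geometric mean of both medians, were set to it. For each gene 1 probe set stood, that of highest mean log2 signal, with _x_at used only as a last resort. A fold with 1 side under the floor is a lower bound. All desmosome genes were named; in other lists, those beyond 2-fold or, with fewer than 2, up to 2 of the brightest. Members and lists were chosen with earlier results of these data known. The counting was tested on simulated data. The alternatives tried were other floors, scalings, probe set choices, a filter on mean signal and subtraction of the neighbours' median. Ratios were computed with pandas 2.3.3 and numpy 2.4.6 in Python 3.11.15, and loess came from statsmodels 0.14.6.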

Additional observations from a re-analysis of the deposited data

How the results depend on the processing

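Under 11 alternatives (no floor, a floor at the 25th or 75th percentile, scaling by quantiles, median or loess, mean or least changed probe set, no shared classes, a filter on mean signal, and subtraction of the neighbours' median) the 107 log2 ratios obtained for the desmosome genes all moved by less than 0.31, the SD between probe sets, and kept their sign. The probe sets that stood for these genes lay above every floor tried, so the floors and the filter could not move their ratios. The SD also exceeded the main log2 ratios of DSG2, DSC2, JUP and DSP in size. With the neighbours' median subtracted, DSG2 went from 0.09 to 0.37 and DSC2 from 0.04 to 0.32. The count of genes at least 2-fold higher was 1 except without the _x_at, _s_at and _a_at classes, where it was 0 because PKP2, PKP3 and JUP had no value, and after subtraction of the neighbours' median, where it was 0 and the log2 ratio of PKP2 was 0.98. The count at least 2-fold lower was 0 throughout. The median log2 ratio ran from 0.06 to 0.12 with all 10 genes and was -0.08 with the 7 left without the shared classes. Over all measured genes, 11.2% were at least 2-fold higher and 9.02% lower without a floor, and 1.10% and 0.813% with it at the 75th percentile (397). There THY1, KRT16, EVPL, ZNF750, KLK5 and NECTIN4 were not measured, and the log2 ratios of GRHL3 (-0.75) and TWIST1 (0.67) were under 2-fold. THY1, KLK5 and ZNF750 also had no value without the shared classes. No paired analysis was possible because each population has 1 array, and for the same reason no replicate could be left out.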
